A study of Saccharomyces cerevisiae with 18 samples.

Results

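The genes described here mark the alpha mating type of Saccharomyces cerevisiae or sit in and beside its silent mating-type loci. They were chosen with earlier results of these data known and are named here by identifier. The 5 alpha-specific genes were STE3 (YKL178C), MF(ALPHA)1 (YPL187W), MF(ALPHA)2 (YGL089C), SAG1 (YJR004C) and AFB1 (YLR040C). The 2 genes of chromosome III were HMRA1 (YCR097W, exons) and RDT1 (YCL054W-A). All 7 were found among the 12289 features of both count tables. The series set deletions of proteins that act in NMD, the decay of mRNAs whose translation ends too early, against wild-type yeast, in 18 total-RNA libraries from 6 groups of 3. The first series held a deletion of upf1 (the core NMD helicase, NAM7 in the annotation) and its wild type, and the second held an ebs1 deletion, an nmd4 deletion, a strain labelled as the double deletion of nmd4 and ebs1, and a wild type. EBS1 and NMD4 encode proteins found with Upf1. All cells grew in YPD, a rich medium, at 30 °C to an optical density of 0.6. The labels give the strain BY4741 and the mating type a for the upf1, ebs1 and nmd4 deletions and both wild types, and the strain BY4742 and the mating type alpha for the labelled double deletion alone.

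Yeast cells are haploid a or alpha according to the gene pair at the MAT locus. In alpha cells the protein alpha1, encoded at MAT, binds beside Mcm1, a regulator present in both types, at the alpha-specific genes and switches them on. The protein alpha2 binds beside Mcm1 at the a-specific genes and switches those off. Unexpressed copies of both gene pairs lie at HML and HMR, where the Sir proteins silence them, and a recombination enhancer on the left arm of chromosome III steers switching towards HML in a cells. HMRA1 is the copy of the a1 gene at HMR, the a1 protein being the partner of alpha2 in diploids.

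The regulators leave recognisable letters in front of these genes. In the 400 bases before the start codon, the run CTAATTAG followed after 5 bases by CAANGAC occurred on either strand in 3 of 6002 nuclear protein-coding genes (0.05%), and those 3 genes were STE3, MF(ALPHA)1 and SAG1. CTAATTAG alone occurred in front of 45 genes (0.75%), of which 3 were alpha-specific genes named here, and CAANGAC alone in front of 870 (14.5%). The joined letters resemble the sites at which alpha1 and Mcm1 are known to bind, and they were chosen after these promoters had been read. Neither the MF(ALPHA)2 nor the AFB1 window held them. The stretches are shown because they set the 3 genes apart from the other 2, with the matched letters in capitals, from the R64 genome, plus strand.
STE3 (chrXI:114939-114974): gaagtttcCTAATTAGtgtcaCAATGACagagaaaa
MF(ALPHA)1 (chrXVI:193332-193367): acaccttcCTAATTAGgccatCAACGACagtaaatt
SAG1 (chrX:445191-445226): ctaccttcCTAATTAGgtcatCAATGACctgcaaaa
The letters TGTNATT and AATTNACA with 12 bases between them, of the type bound by alpha2 and Mcm1, also occurred in front of 3 of the 6002 genes. They were RDT1 and the a-specific genes MFA1 (a-factor) and STE6 (its exporter). This is 2 of the 7 a-specific genes listed, as STE2, MFA2, BAR1, AGA2 and ASG7 held no match. The first 2 stretches below are on the plus strand and that of STE6 is on the minus strand.
RDT1 (chrIII:30590-30632): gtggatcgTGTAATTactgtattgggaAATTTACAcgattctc
MFA1 (chrIV:1384936-1384978): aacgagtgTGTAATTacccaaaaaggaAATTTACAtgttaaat
STE6 (chrXI:46471-46513): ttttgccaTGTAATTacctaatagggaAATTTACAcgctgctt
A match describes these letters only, and binding was not measured.

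Library totals ran between 14243384 and 31452109 counts. Levels are given as CPM, the usual depth-scaled count, after TMM scaling within a series, and a ± beside a level is the SD over 3 libraries. Differences are log2 fold changes ± SE from edgeR's quasi-likelihood test, called at a Benjamini-Hochberg adjusted p under 0.05 over all features tested. The deleted genes had the levels their labels call for except in 1 group. NAM7 stood between 8.35 and 9.01 CPM in the upf1 deletion, against 246 to 256 CPM in its wild type. NMD4 stood at 64.1, 80.8 and 76.1 CPM in the labelled double deletion, against 3.08, 3.60 and 1.94 CPM in the nmd4 deletion and 31.6, 27.2 and 22.8 CPM in the wild type, so its transcript was not lost there. EBS1 was low in the labelled double deletion, at 4.09 to 6.04 CPM against 132 to 157 CPM in the wild type. BY4742 lacks the lysine gene LYS2 and BY4741 the methionine gene MET17. LYS2 had 1, 1 and 4 counts and MET17 6544, 6161 and 14885 counts in the labelled double deletion, whereas MET17 had between 0 and 3 counts in every other library. Genotype, parent strain and mating type cannot be told apart in that group.

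In the labelled double deletion all 5 alpha-specific genes rose and both chromosome III genes fell to 0 counts. All 7 genes passed the test against the wild type, where 2.39% of 10148 features did, and all 7 passed against the ebs1 deletion (background 0.414%) and against the nmd4 deletion (background 0.552%). These 3 comparisons share the labelled double deletion libraries. MF(ALPHA)1 and MF(ALPHA)2 passed the count filter only through those libraries, where they are high, so their calls add no support. The genes were chosen by mating type with earlier results of these data known, so the counts of calls are no independent test. No library of the labelled double deletion overlapped any library of the 3 a-type groups for any of the 7 genes, as the plot of levels by library shows. The share of all features separated in this way was not counted, so the separation by itself is no result about these genes.

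**Figure D1:**
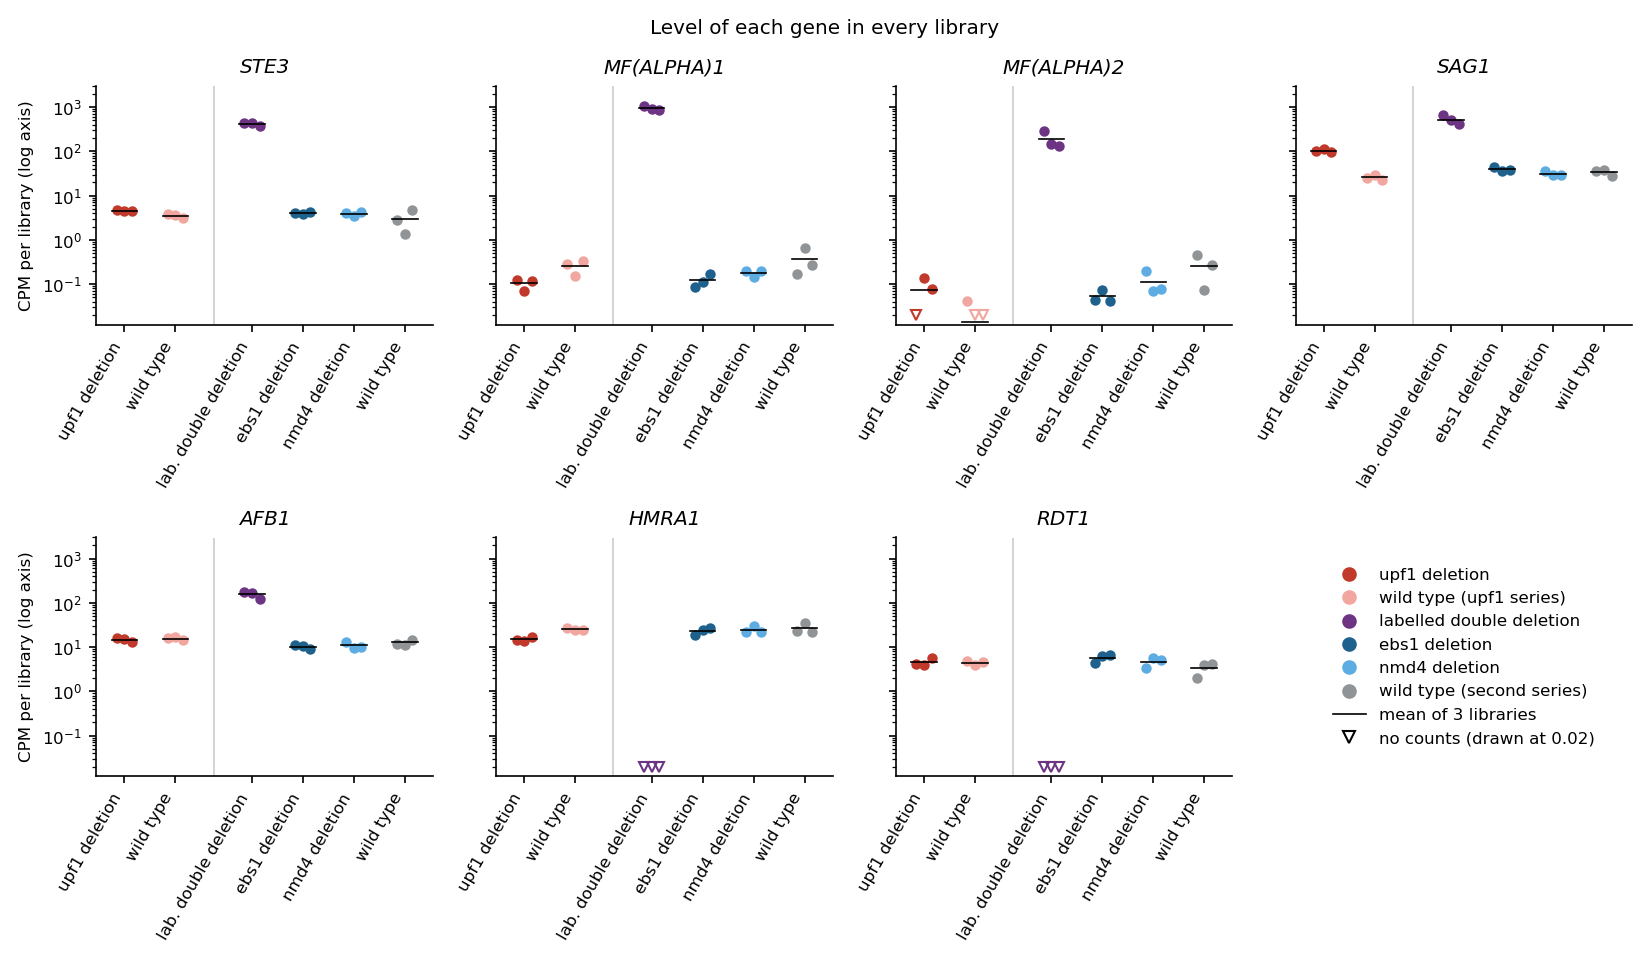
CPM of the 7 genes in each of the 18 libraries (log axis), with the upf1 series left of the grey line and the second series right of it. The labelled double deletion stands above every other group for the 5 alpha-specific genes and at 0 for HMRA1 and RDT1, and SAG1 is also higher in the upf1 deletion than in its wild type.

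Among the ligands, MF(ALPHA)1 (chrXVI:193682-194146, plus strand) encodes the main precursor of alpha-factor, the pheromone that alpha cells secrete. It had 1072, 904 and 845 CPM in the labelled double deletion, against 0.0882, 0.113 and 0.166 CPM in the ebs1 deletion, 0.196, 0.141 and 0.194 CPM in the nmd4 deletion and 0.168, 0.653 and 0.267 CPM in the wild type. The a-type libraries of the second series each held between 2 and 9 counts of it. The change over the wild type was 11.44 ± 0.27 on the log2 scale (adjusted p = 1.67e-10, edgeR). MF(ALPHA)2 (chrVII:344804-344964, minus strand) encodes the minor precursor of the same pheromone. Its levels were 287, 145 and 132 CPM in the labelled double deletion, against 0.0414 to 0.0754 CPM in the ebs1 deletion, 0.0706 to 0.196 CPM in the nmd4 deletion and 0.0725 to 0.449 CPM in the wild type. Replicate 1 of the labelled double deletion was the highest for both pheromone genes. The change of MF(ALPHA)2 was 9.38 ± 0.44 (adjusted p = 9.15e-08, edgeR).

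Length matters for a comparison between the ligands. Of the 50-base windows of MF(ALPHA)1, whose precursor repeats the pheromone in tandem, 84.6% occur once in the genome, so some of its reads could not be counted. Per kb of counted feature the labelled double deletion held 2023 ± 253 CPM of MF(ALPHA)1 and 1167 ± 536 CPM of MF(ALPHA)2 (SD, n = 3). The means lay apart by less than 2 SD of MF(ALPHA)2, and the MF(ALPHA)2 feature covers only 161 of the 363 bases of its gene. The feature misses the first 189 bases, of which 133 lie inside another listed transcript on the same strand, CUT_GIM_0552 (chrVII:345021-345743), a cryptic unstable transcript that reaches 590 bases upstream of the start codon. CUT_GIM_0552 had 1024, 893 and 1474 counts in the labelled double deletion, against 6, 10 and 14 in the ebs1 deletion, 8, 18 and 11 in the nmd4 deletion and 5, 7 and 18 in the wild type. It rose by 6.44 ± 0.28 over the wild type (adjusted p = 5.66e-08, edgeR), so reads from the start of the gene were counted outside its own feature.

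The receptor gene STE3 (chrXI:112891-114883, minus strand) encodes the a-factor receptor, through which alpha cells sense their partner. It had 437, 439 and 369 CPM in the labelled double deletion, against 4.15, 3.77 and 4.18 CPM in the ebs1 deletion, 3.97, 3.46 and 4.37 CPM in the nmd4 deletion and 2.75, 1.38 and 4.81 CPM in the wild type. The wild type was the most uneven group, with the lowest and the highest a-type library of the second series. The change over the wild type was 7.05 ± 0.32 (adjusted p = 6.84e-08, edgeR).

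SAG1 and AFB1 had the highest levels of the 5 alpha-specific genes in a cells. SAG1 (chrX:442691-445683, minus strand) encodes alpha-agglutinin, the cell-wall protein that binds the agglutinin of a cells. Its levels were 648, 502 and 408 CPM in the labelled double deletion, against 43.2, 36.5 and 37.5 CPM in the ebs1 deletion, 36.3, 29.4 and 28.9 CPM in the nmd4 deletion and 36.5, 37.6 and 28.2 CPM in the wild type. AFB1 (chrXII:228772-229700, minus strand) encodes a secreted barrier against a-factor. It had 176, 167 and 121 CPM in the labelled double deletion, against 9.06 to 11.0 CPM in the ebs1 deletion, 9.64 to 13.3 CPM in the nmd4 deletion and 11.3 to 14.9 CPM in the wild type. Both genes rose in the labelled double deletion, by 3.93 ± 0.19 (adjusted p = 1.13e-07) for SAG1 and by 3.60 ± 0.18 (adjusted p = 2.03e-07, edgeR) for AFB1. Replicate 3 of the labelled double deletion was the lowest for all 5 alpha-specific genes.

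The 5 genes therefore differed in their level in wild-type a cells as a share of that in the labelled double deletion. SAG1 kept 6.57% and AFB1 8.23% of its mean level in the labelled double deletion, STE3 0.718%, MF(ALPHA)2 0.140% and MF(ALPHA)1 0.0386%. In the ebs1 deletion the shares were 7.53%, 6.60%, 0.972%, 0.0285% and 0.0130% in the same order of genes, and in the nmd4 deletion 6.07%, 7.07%, 0.948%, 0.0610% and 0.0188%. By share, the 2 pheromone genes, STE3, and the pair SAG1 and AFB1 formed 3 steps in these 3 a-type groups, while SAG1 and AFB1 changed places between groups. All 3 groups were divided by the same labelled double deletion libraries, so they give no separate support for the steps. Per kb those libraries held 208 CPM of STE3, 1167 CPM of MF(ALPHA)2 and 2023 CPM of MF(ALPHA)1. The step below STE3 therefore also reflects the levels in the labelled double deletion. Single libraries carry some of the lowest shares: without wild-type replicate 2 that of MF(ALPHA)1 is 0.0232%, and that of MF(ALPHA)2 is 0.0904% without wild-type replicate 1 and 0.0394% without replicate 1 of the nmd4 deletion. MET17, which BY4741 lacks, still had 0.0561 CPM in the ebs1 deletion, 0.0247 CPM in the nmd4 deletion and 0.0369 CPM in the wild type. Its level in the labelled double deletion was 350 CPM. In the ebs1 deletion MF(ALPHA)1 had 0.122 CPM and MF(ALPHA)2 0.0536 CPM. The lowest pheromone shares are therefore not read as transcript that remained, and the source of such reads was not tested. Per kb in wild-type a cells of the second series the levels were 13.7 ± 2.01 CPM for AFB1, 11.4 ± 1.72 CPM for SAG1, 1.63 ± 1.17 CPM for MF(ALPHA)2, 1.495 ± 0.867 CPM for STE3 and 0.780 ± 0.550 CPM for MF(ALPHA)1. In that group AFB1 and SAG1 did not differ beyond their spread, nor did the other 3. The wild type of the upf1 series had 16.9 ± 1.49 CPM per kb of AFB1 and 8.58 ± 0.912 of SAG1, which lay apart. It had 1.77 ± 0.166 CPM per kb of STE3, above 0.556 ± 0.207 of MF(ALPHA)1 and 0.0855 ± 0.148 of MF(ALPHA)2. Fewer cells that carry a transcript and less of it per cell cannot be told apart in these bulk samples. Across the 12 libraries of the second series, pairs of alpha-specific genes had Pearson r between 0.975 and 0.994 of log2 CPM, values that rest on the contrast of 1 group with the rest.

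Of the 21 features listed within 1000 bases of the 5 alpha-specific genes, 18 were tested in the labelled double deletion against the wild type, of which 5 rose, 2 fell and 11 did not pass. Among those that rose were CUT_GIM_0552 and CUT597, which lies inside it on the same strand, so they share reads. SUT226, a stable unannotated transcript that starts 211 bases upstream of the STE3 feature on the opposite strand, had 208, 197 and 301 counts in the labelled double deletion, against 24, 18 and 60 in the wild type, and rose by 2.47 ± 0.24 (adjusted p = 9.38e-05, edgeR). Upstream of AFB1, also on the opposite strand, the Xrn1-sensitive transcript XUT_12F-90 rose by 2.14 ± 0.15 (adjusted p = 3.84e-06) and CUT_GIM_0801, which shares its reads, by 3.44 ± 0.15 (adjusted p = 5.91e-08, edgeR). The stretch of SUT226 begins on the far side of the site shown above for STE3. Antisense transcripts inside the genes went the other way or were scarce. YLR041W, which overlaps AFB1 on the opposite strand, had 7, 1 and 9 counts in the labelled double deletion, against 15, 10 and 20 in the wild type, and fell by 1.78 on the log2 scale (SE 0.39, adjusted p = 0.0382, edgeR). YKL177W, opposite STE3, had 4, 1 and 1 counts in the labelled double deletion and 4, 0 and 14 in the wild type, too few to be tested. These counts amounted to 0.1502% of the AFB1 sense counts and 0.0195% of the STE3 sense counts in the labelled double deletion, so the sense signal was not mirrored onto the other strand. LIF1 and UIP4, coding genes beside MF(ALPHA)2 and MF(ALPHA)1, had log2 changes of 0.36 ± 0.10 (adjusted p = 0.117) and 0.27 ± 0.28 (adjusted p = 0.705), and POS5 on the other side of MF(ALPHA)1 fell by 0.51 (adjusted p = 0.00537, edgeR).

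**Figure D2:**
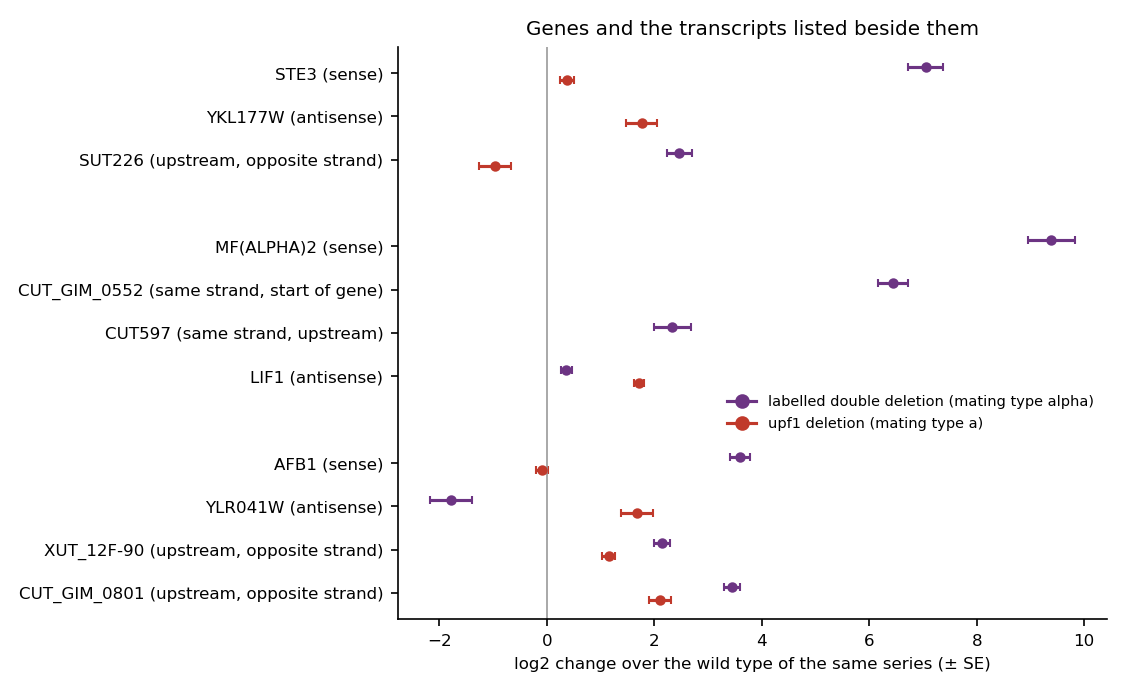
Log2 change ± SE of STE3, MF(ALPHA)2, AFB1 and some of the transcripts listed beside them, in the labelled double deletion and in the upf1 deletion, each over the wild type of its own series (n = 3 libraries a group). In the labelled double deletion the 5 transcripts drawn that begin upstream rose by 2.14 to 6.44 and the antisense YLR041W fell, whereas in the upf1 deletion the antisense YKL177W, YLR041W and LIF1 rose by 1.68 to 1.77. CUT_GIM_0552 reaches into MF(ALPHA)2 itself. CUT597 lies inside CUT_GIM_0552 and CUT_GIM_0801 inside XUT_12F-90, so the rises within each pair share reads.

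HMRA1 and RDT1 were the reverse case. HMRA1 (feature chrIII:293785-294421, plus strand) had no count in any labelled double deletion library, against 421, 635 and 654 counts in the ebs1 deletion, 444, 847 and 558 in the nmd4 deletion and 419, 479 and 566 in the wild type. RDT1 (chrIII:30910-30996, plus strand) also had none, against 99, 171 and 158 counts in the ebs1 deletion, 69, 162 and 131 in the nmd4 deletion and 36, 53 and 111 in the wild type. Both genes were detected in every a-type library and in no alpha-type library. The 3 labelled double deletion libraries held 72808212 counts together. With a floor of 3 counts over the group, HMRA1 was at least 568-fold lower and RDT1 at least 77.6-fold lower than in the wild type (adjusted p = 6.19e-07 and 0.000122, edgeR). Intervals and floors of this kind cover counting error only.

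The a1 signal needs a remark on the reference genome. R64 carries the alpha genes at MAT, so reads of the a1 gene at MAT in a cells and of its copy at HMR both fall on HMRA1 and cannot be told apart, and all 384 windows of 50 bases in the HMRA1 exons occur once in R64. The alpha genes at MAT and HML are copies of each other. None of the 50-base windows of MATALPHA1, HMLALPHA1, HMLALPHA2 or HMRA2 occurs once in R64, and these 4 features had 0 counts in all 18 libraries, since reads with more than 1 alignment were not counted. MATALPHA2 had 71, 114 and 142 counts in the labelled double deletion, against 24, 37 and 38 in the wild type (1.28 ± 0.34, adjusted p = 0.0820, edgeR). Only 7.16% of its windows occur once, and 154 of its bases overlap the neighbouring BUD5 on the same strand.

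The fixed lists of other mating genes gave the reverse picture for a-specific genes and little else. All 7 a-specific genes fell in the labelled double deletion against the wild type, with a median log2 change of -6.09 against -0.01 over all features tested. Examples are MFA2 (a-factor), which fell by 9.21 (adjusted p = 6.65e-07), and STE2 (the alpha-factor receptor), which fell by 6.18 (adjusted p = 5.66e-08, edgeR). None of the 3 alpha-factor maturation genes passed (KEX2, KEX1 and STE13, which cut and trim the precursor; log2 changes -0.18 to 0.02). None of the 4 regulators MCM1, STE12, TUP1 and CYC8, the 13 genes of receptor signalling or the 9 silencing genes passed either, with medians of -0.17, 0.07 and -0.11. Of the genes that mark diploid or sporulating cells, none of the 3 tested passed, and IME4 stayed between 0 and 0.725 CPM in the second series.

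The coding genes other than the 7 themselves were ranked by how much their pattern over the 12 libraries was like that of each gene. The strain marker MET17 came first for all 5 alpha-specific genes (Pearson r between 0.979 and 0.994), followed by YNL146W (0.892 to 0.933), and the third place was held by PET18, YMR317W or YKR104W (0.770 to 0.844). HMRA1 was most like LYS2 (0.997), STE2 (0.996) and STE6 (0.995), and RDT1 most like MFA1 (0.990), LYS2 (0.986) and STE2 (0.976). MET17 and LYS2 differ between the parent strains, so the measure does not separate mating type from strain.

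Among a cells, the upf1 deletion moved 3 of the 5 testable genes, and SAG1 by the largest amount. The background there was 68.8% of 9700 features called, so 3 of 5 is no result about these genes as a group. SAG1 had 102, 111 and 98.5 CPM in the upf1 deletion, against 25.5, 28.5 and 23.0 CPM in its wild type. The groups were far apart, and the rise was 2.02 ± 0.08 on the log2 scale, 4.05-fold (adjusted p = 2.81e-09, edgeR; rank 133 of the features tested by p). The upf1 deletion thereby reached 34.6 ± 2.08 CPM per kb of SAG1, against 8.58 ± 0.912 in its wild type. The level in alpha cells was measured in the other series, where the labelled double deletion had 173 ± 40.4 CPM per kb, so no ratio is given.

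SAG1 also differs from the other 6 genes in its annotated start. Its counted feature begins 822 bases before the start codon, a leader matched or exceeded by 37 of 5597 coding features that contain their RefSeq gene (0.661%; median 56 bases). The site shown above lies inside this feature, 337 bases before the start codon, whereas the STE3 site lies 63 bases outside its feature and the MF(ALPHA)1 site 322 bases outside. The SAG1 leader holds 18 ATG triplets, 2.19 per 100 bases, against 0.69 per 100 bases in 5382 leaders pooled, and all 18 are followed by a stop codon in frame before the SAG1 start. Reading frames ahead of the main one are a known feature of many NMD substrates, and their part in the SAG1 change was not tested. The leader of STE3 is 256 bases long and holds 4 ATG triplets, and that of AFB1 is 118 bases long and holds none. The annotation behind the features is not given in the sources used here, and where SAG1 transcripts began in each cell type was not measured.

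STE3 had 4.72, 4.42 and 4.52 CPM in the upf1 deletion, against 3.76, 3.67 and 3.15 CPM in its wild type. The groups did not overlap, and the change was 0.37 ± 0.13 (adjusted p = 0.0248, edgeR), but 3 of the 6 libraries each ended the call when left out: without replicate 3 of the wild type (adjusted p = 0.102), replicate 1 of the upf1 deletion (0.0781) or its replicate 3 (0.0552). DESeq2 did not call it either (adjusted p = 0.133). How many of all features have groups that do not overlap in this comparison was not counted. AFB1 had 15.8, 15.3 and 12.9 CPM in the upf1 deletion, against 15.7, 17.0 and 14.3 CPM in its wild type, overlapping levels with a log2 change of -0.09 ± 0.10 (adjusted p = 0.442, edgeR), which becomes 0.04 when only coding features set the scale. The pheromone genes were too scarce to be tested: MF(ALPHA)1 had 3, 2 and 3 counts in the upf1 deletion and 7, 3 and 8 in its wild type, and MF(ALPHA)2 had 0, 4 and 2 counts in the upf1 deletion and 1, 0 and 0 in its wild type.

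Antisense transcripts of these genes rose in the upf1 deletion. YKL177W had 33, 35 and 26 counts in the upf1 deletion, against 11, 7 and 6 in its wild type (1.77 ± 0.29, adjusted p = 0.000234), and YLR041W had 34, 59 and 44, against 18, 12 and 7 (1.68 ± 0.30, adjusted p = 0.000436, edgeR). LIF1, a repair gene whose feature runs over MF(ALPHA)2 on the opposite strand, rose by 1.71 ± 0.09 (adjusted p = 2.5e-08). Upstream of AFB1, CUT_GIM_0801 rose by 2.11 ± 0.20 (adjusted p = 4.63e-06), while SUT226 upstream of STE3 fell by 0.97 (adjusted p = 0.0133, edgeR). With 68.8% of features called, these rises say nothing particular about the mating-type genes.

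HMRA1 fell in the upf1 deletion. It had 14.8, 14.1 and 17.3 CPM in the upf1 deletion, against 26.7, 24.3 and 24.9 CPM in its wild type. The groups did not overlap, and the change was -0.72 ± 0.09 (adjusted p = 3.38e-05, edgeR). The share of all features whose groups do not overlap was not counted, and 68.8% of features were called in this comparison. HMRA1 carries 2 short introns, and both are shown because reads on them report unspliced RNA. The capitals mark the first 6 and the last 3 bases.
HMRA1 intron 1 (chrIII:293940-293993, plus strand): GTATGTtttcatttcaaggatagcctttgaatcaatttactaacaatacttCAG
HMRA1 intron 2 (chrIII:294240-294291, plus strand): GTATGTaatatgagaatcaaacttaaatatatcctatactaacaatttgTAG
The introns had 7, 3 and 4 counts in the upf1 deletion, against 4, 5 and 9 in its wild type. Per base this was 6.10% ± 3.37 of the exon density in the upf1 deletion and 5.29% ± 2.24 in its wild type (SD, n = 3; exact 2-sided permutation test, p = 0.7, where the smallest possible p is 0.1). In the second series it was 30.4% ± 8.87 in the ebs1 deletion, 38.8% ± 1.29 in the nmd4 deletion and 33.6% ± 5.66 in the wild type (exact 2-sided permutation tests against the wild type, p = 0.6 and p = 0.2). Groups of 3 cannot pass the threshold in this test. Reads were counted over all features they overlap, so a read across an intron edge counts for intron and exon. The percentages are therefore not fractions of unspliced RNA. The intron share was higher in every a-type library of the second series, at 20.7% or more, than in any library of the upf1 series, at 9.96% or less. The series differ in experimenter per the labels, and this difference was not tested.

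Genes of the other fixed lists also changed in the upf1 deletion, where 68.8% of all features were called, so the counts that follow are not results about these lists. Of the 7 a-specific genes 6 fell and none rose, with a median of -0.69, and STE6 fell by 0.69 (SE 0.08, adjusted p = 1.89e-05, edgeR). MATALPHA2 had 159, 129 and 123 counts in the upf1 deletion, against 53, 53 and 68 in its wild type, and rose by 1.06 ± 0.18 (adjusted p = 0.000371, edgeR), with the same overlap with BUD5 as above. Of the 9 silencing genes 7 fell and 2 rose. SIR2, a histone deacetylase of silent chromatin, fell by 1.04 (adjusted p = 2.74e-07) and RAP1, which binds silencers, by 0.68 (adjusted p = 2.55e-07), whereas SIR1, which acts at the silencers of HML and HMR, rose by 0.82 (adjusted p = 4.77e-06, edgeR). Of the 13 signalling genes 8 fell and 3 rose, among them FAR1, which arrests mating cells and fell by 1.02 (adjusted p = 3.51e-07), and of the 4 regulators 3 fell, STE12 by 0.42 (adjusted p = 3.74e-05, edgeR). Of the 3 testable genes that mark diploid or sporulating cells, IME2 rose by 2.18 (adjusted p = 8e-10) and SPO13 by 1.61 (adjusted p = 0.000156, edgeR), while of the 3 maturation genes STE13 rose by 0.22 (adjusted p = 0.00284) and KEX1 fell by 0.43 (adjusted p = 0.000103, edgeR). The part of these genes in the fall of HMRA1 was not tested.

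**Figure D3:**
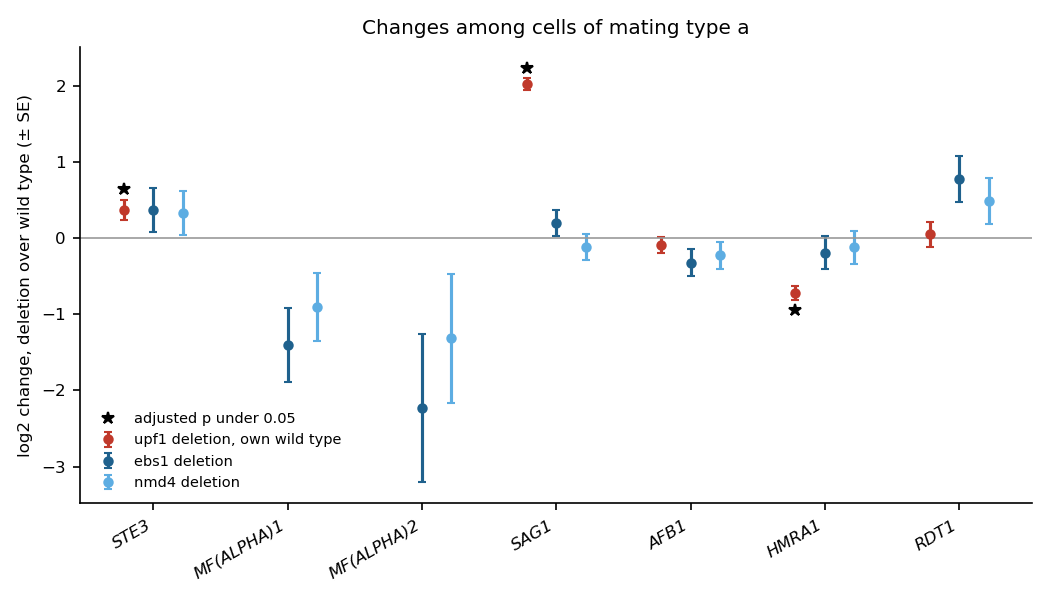
Log2 change ± SE of each gene in the upf1, ebs1 and nmd4 deletions over wild type (n = 3 libraries a group), with stars at an adjusted p under 0.05. SAG1 at 2.02, STE3 at 0.37 and HMRA1 at -0.72 carry stars in the upf1 deletion, and no gene does in the ebs1 or nmd4 deletion, where the pheromone genes passed the count filter only through the labelled double deletion.

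In the ebs1 and nmd4 deletions 5 of the 7 genes had enough counts to be tested without the labelled double deletion libraries, and none of the 5 passed the test, where 0.365% and 0.0493% of 10148 features did. MF(ALPHA)1 and MF(ALPHA)2 passed the count filter only through the labelled double deletion, where they are high, so their tests among a cells are not read. Of the 5 genes, 1 in the ebs1 deletion and 0 in the nmd4 deletion had an unadjusted p under 0.05, and DESeq2 called 0 in both. Over all 10148 features the unadjusted counts were 1287 and 516, so 1 of 5 and 0 of 5 are no result about these genes. The gene in the ebs1 deletion was RDT1. It had 4.37, 6.45 and 6.54 CPM in the ebs1 deletion, 3.38, 5.72 and 5.07 CPM in the nmd4 deletion and 2.02, 3.84 and 4.24 CPM in the wild type. Every ebs1 deletion library lay above every wild-type library, though the gap between the nearest was small, and the log2 change was 0.77 ± 0.30 (adjusted p = 0.338, edgeR). With the replicate number as a block, the labels giving same-numbered samples as handled in parallel, RDT1 passed in the ebs1 deletion (0.79 ± 0.15, adjusted p = 0.0288). AFB1 was lower in every ebs1 deletion library than in any wild-type library, with a log2 change of -0.33 ± 0.18 (adjusted p = 0.482, edgeR). How many of all features separate as RDT1 and AFB1 do here was not counted. In the nmd4 deletion RDT1 had a change of 0.49 ± 0.31 (adjusted p = 1.00, edgeR). SAG1 had changes of 0.20 ± 0.17 in the ebs1 deletion and -0.11 ± 0.17 in the nmd4 deletion, and HMRA1 of -0.19 ± 0.22 and -0.12 ± 0.22. None of the 7 a-specific, 3 maturation, 4 regulator, 13 signalling or 9 silencing genes passed in either deletion.

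The difference between the deletions was tested in all 18 libraries, each effect taken within its own series. The effect on SAG1 was larger in the upf1 deletion than in the ebs1 deletion by 1.80 ± 0.23 (adjusted p = 2.21e-05) and than in the nmd4 deletion by 2.13 ± 0.23 (adjusted p = 2.4e-06, edgeR). No other gene of the 5 testable among a cells passed, with backgrounds of 19.8% and 26.2% of 10381 features. For HMRA1 the upf1 effect minus the nmd4 effect was -0.59 ± 0.27 (adjusted p = 0.115), and it passed with the replicate block (adjusted p = 0.0371), with DESeq2 (0.0219), with RLE size factors (0.0365), without a filter on low counts (0.0452) and without replicate 2 of the second wild type (0.0165). Its upf1 effect minus the ebs1 effect was -0.54 ± 0.27 (adjusted p = 0.178, edgeR) and passed without that library (adjusted p = 0.0294). For RDT1 the upf1 effect minus the ebs1 effect was -0.74 ± 0.36 (adjusted p = 0.176, edgeR) and passed with the replicate block (adjusted p = 0.0135).

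RDT1 is a reading frame of 87 bases on the left arm of chromosome III, 1100 bases beyond the annotated end of the recombination enhancer (chrIII:29108-29809). Its whole frame is shown, with the start and stop codons in capitals.
RDT1 (chrIII:30910-30996, plus strand): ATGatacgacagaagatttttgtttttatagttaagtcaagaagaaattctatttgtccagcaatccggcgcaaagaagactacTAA
It lies inside a longer listed transcript on the same strand, XUT_3F-6 (chrIII:30658-31231), so the 2 share reads. The site shown above falls in the gap between XUT_3F-6, which begins 33 bases beyond it, and XUT_3F-5 (chrIII:29541-30536), which ends 61 bases before it and reaches 269 bases into the enhancer. Per kb the wild type of the second series had 38.7 ± 13.6 CPM of RDT1.

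The longer transcripts were also almost absent from the labelled double deletion. XUT_3F-5 had 1, 3 and 3 counts in the labelled double deletion, against 553, 691 and 633 in the ebs1 deletion, 443, 656 and 466 in the nmd4 deletion and 327, 262 and 487 in the wild type. XUT_3F-6 had 0, 0 and 1 counts in the labelled double deletion, against 276, 468 and 403 in the ebs1 deletion, 244, 541 and 435 in the nmd4 deletion and 157, 180 and 312 in the wild type. CUT461, on the opposite strand within XUT_3F-5, had 1 count in all against 21, 32 and 37 in the wild type. All 3 fell against the wild type (adjusted p = 8.41e-10, 2.03e-07 and 8.83e-05, edgeR). SPB1 (a ribosomal RNA methyltransferase gene), which begins 436 bases beyond RDT1 on the same strand, had a log2 change of -0.23 ± 0.18 (adjusted p = 0.611).

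In the upf1 deletion the 2 long transcripts parted. XUT_3F-5 had 692, 966 and 890 counts in the upf1 deletion, against 199, 204 and 270 in its wild type, a rise of 1.72 ± 0.12 (adjusted p = 2.28e-07, edgeR). XUT_3F-6 had 321, 331 and 347 counts in the upf1 deletion, against 374, 246 and 332 in its wild type, with a change of -0.11 ± 0.11 (adjusted p = 0.398). RDT1 itself had 4.26, 3.86 and 5.67 CPM in the upf1 deletion, against 4.75, 3.97 and 4.53 CPM in its wild type (0.05 ± 0.16, adjusted p = 0.802, edgeR). CUT461, on the opposite strand within XUT_3F-5, had 5, 9 and 9 counts in the upf1 deletion, against 14, 14 and 20 in its wild type, and fell by 1.24 (SE 0.32, adjusted p = 0.00516, edgeR).

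**Figure D4:**
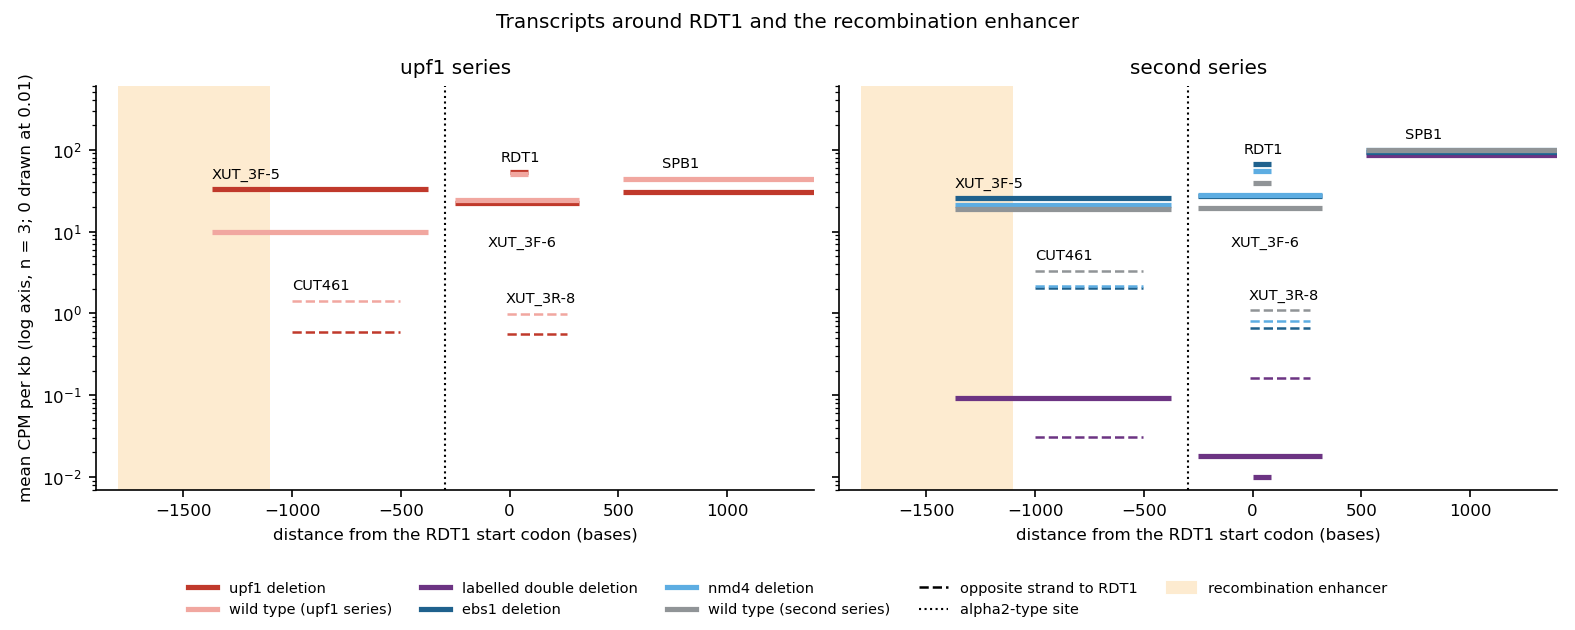
Mean CPM per kb (log axis) of the transcripts around RDT1 against distance from its start codon, in the upf1 series and the second series (n = 3 libraries a group), with the recombination enhancer shaded and the alpha2-type site dotted. XUT_3F-5 is higher in the upf1 deletion than in its wild type, and in the labelled double deletion all transcripts lie below the other groups of the second series. For SPB1 the difference is small, at 85.7 CPM per kb against 94.4 in the ebs1 deletion and 100.3 in the wild type. It was not called against the wild type (adjusted p = 0.611, edgeR).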

How the data were processed

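Total RNA freed of ribosomal RNA with Ribo-Zero was made into stranded TruSeq libraries, per the labels' protocols. The authors deposited raw read counts per feature, 1 table for each series. Per the file headers and the submitters' processing notes, reads were aligned with STAR 2.4.2a to R64 and counted with featureCounts (Subread 1.5.0-p3) on the sense strand, over all features a read overlaps, without reads of more than 1 alignment. Overlapping features therefore share reads, and identical mating-type copies lose theirs.

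The counts were tested with edgeR 4.0.16 and limma 3.58.1 in R 4.3.3 (filterByExpr, TMM, quasi-likelihood test, 2-sided, Benjamini-Hochberg over all features, threshold 0.05), with DESeq2 1.42.0 as an alternative. The upf1 series was fitted alone (6 libraries), the second series on its 12 libraries, and differences between effects on all 18. The code was tested on simulated data. Values and plots came from Python 3.11.15 with pandas 2.3.3, numpy 2.4.6, scipy 1.17.1 and matplotlib 3.10.9. Sequences are from RefSeq's R64 genome, whose gene positions match the files. The labels do not say that samples of a group are separate cultures, so the p-values reflect spread among samples that may be technical. They do say that same-numbered samples were handled in parallel; deviations from group means correlated between 0.044 and 0.226 for same-numbered libraries in the upf1 series and between -0.011 and 0.645 in the second, against -0.188 to 0.068 and -0.471 to 0.213 for differently numbered ones. The genes and lists were chosen with earlier results of these data known. The rule for names took all 7 genes, features within 1000 bases of them, up to 4 genes per list, the mating-type loci, and the 3 coding genes of at least 5 CPM in their highest group most like each gene in log2 CPM with a prior count of 2. The alternatives were DESeq2, other size factors, scaling on coding features, no filter, the replicate block, fitting 2 groups alone and leaving out each library.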

Additional observations from a re-analysis of the deposited data

Results flagged for a closer look

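Of the 5 genes testable among a cells, SAG1 alone had a change called different between deletions in the fit of all 18 libraries. The backgrounds were 19.8% and 26.2% of 10381 features, so 1 of 5 is no result about these genes as a group. HMRA1 passed against the nmd4 effect under some other settings, as given above. The upf1 effect exceeded the ebs1 effect by 1.80 on the log2 scale and the nmd4 effect by 2.13. The SAG1 changes themselves were 2.02 ± 0.08 without upf1, 0.20 ± 0.17 without ebs1 and -0.11 ± 0.17 without nmd4, each over the wild type of its series.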

How the results depend on the processing

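Of 709 values of single genes under other settings 661 kept their direction and side of the threshold, 4 lost and 12 gained a call, and 32 changed sign, none of them called. The number of called genes moved by over 1.5 times in 3 comparisons, and in the upf1 deletion it was 2 to 3 with a library left out, against 3. In the ebs1 deletion it was 2 with the replicate block, against 0. For the upf1 effect minus the ebs1 effect it was 2 with DESeq2, 3 with the replicate block and 1 to 2 with a library left out, against 1. For the upf1 effect minus the nmd4 effect it was 2 with DESeq2, with RLE size factors and without a filter, 3 with the replicate block and 1 to 2 with a library left out, against 1. The library that gave 2 was replicate 2 of the second wild type in both. MF(ALPHA)2 is counted in each value of the block and in that of DESeq2 for ebs1, although it passed the filter only through the labelled double deletion. The block also added RDT1 in the ebs1 deletion and in the upf1 effect minus the ebs1 effect. In the upf1 effect minus the nmd4 effect it added HMRA1. It changed no call beyond these, and the cause was not tested. SAG1 kept both differences under all settings, between 1.65 and 1.94 and between 1.96 and 2.27.

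The sign changes were in small values. Scaling on coding features, which shifts the median of all features by 0.13 in the upf1 comparison, gave 0.0401 for AFB1 there and 0.0773 for STE3 in the upf1 minus ebs1 difference, where the block gave 0.0035. MF(ALPHA)1 in that difference was -0.0853 with DESeq2, -0.0733 with RLE and -0.0354 without a filter. In the upf1 minus nmd4 difference STE3 was -0.13 with DESeq2, -0.12 with RLE and -0.0755 without a filter, and AFB1 was -0.0275 with DESeq2 and -0.0279 with RLE. With a library left out, RDT1 in the upf1 deletion ran from -0.13 to 0.17, HMRA1 from -0.30 to 0.12 in the nmd4 deletion and from -0.32 to 0.0414 in the ebs1 deletion, STE3 from -0.55 to 0.28 and from -0.49 to 0.33 in the differences from ebs1 and nmd4, MF(ALPHA)1 from -0.49 to 0.34 in the first and AFB1 from -0.0155 to 0.22 in the second. The pheromone genes in a cells rest on 0 to 9 counts a library, which limits any change seen there.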

Other observations

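YCR041W, a reading frame that overlaps the 3' end of MATALPHA1 on the same strand, was looked at after its values were seen. It had 34, 26 and 52 counts in the labelled double deletion, against 9, 18 and 12 in the ebs1 deletion, 12, 24 and 15 in the nmd4 deletion and 10, 7 and 11 in the wild type, and rose by 1.58 ± 0.28 over the wild type (adjusted p = 0.0106, edgeR's quasi-likelihood test). The change was 1.47 ± 0.26 over the ebs1 deletion (adjusted p = 0.0291) and 1.11 ± 0.25 over the nmd4 deletion, not called (adjusted p = 0.0939, edgeR). CUT_GIM_0968, which lies inside YCR041W on the same strand, had the same counts, so the reads cannot be assigned to either. The pheromone response letters TGAAACA occurred, on either strand, in the 400 bases before 6 of 7 a-specific genes and 1 of 5 alpha-specific genes, MF(ALPHA)2, against 592 of 6002 genes (9.86%).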
